A study of Mus musculus with 13 samples.

Results

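The collagen and elastic fibre matrix genes described here are 39 named genes: 14 collagen chains, the enzymes and chaperone that modify, trim and cross-link them, the fibrillins and elastin, matrix proteins that bind fibrils, and proteases and inhibitors of matrix turnover. They were chosen by symbol, as matrix genes relevant to connective tissue disease, and all 39 of 39 were found among 48709 mouse genes counted. They were measured by bulk RNA-seq in enamel organs, the dental epithelium that makes enamel, micro-dissected from mouse mandibular incisors at postnatal day 11. The Het group is 5 mice of genotype Tgfbr2-G357W/+, in which 1 allele of the type II TGF-beta receptor carries a glycine-to-tryptophan change, and the WT group is 8 Tgfbr2-+/+ littermates. The mice model Loeys-Dietz syndrome, a connective tissue disorder, and the labels give no treatment, Cre driver or further allele for either group.

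Collagens are triple helices of 3 chains. In the endoplasmic reticulum their prolines and lysines are hydroxylated and a chaperone guards the helix; outside the cell the ends are cut off, molecules line up into fibrils, and lysyl oxidases cross-link them. Elastic fibres are cross-linked elastin on a scaffold of fibrillin microfibrils, and the microfibrils also hold latent TGF-beta, a signal that in many connective tissue cells raises collagen transcription. These genes are mostly the work of fibroblasts, odontoblasts, osteoblasts and vessel cells, while enamel epithelium rests on a basement membrane of type IV collagen and secretes a matrix that holds no fibrillar collagen of its own.

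Library depth ran from 20266079 to 26122340 counts in Het and from 18852382 to 26508410 in WT. All 12 secretory ameloblast and dental epithelium markers were counted in every library, among them Ambn, Amelx and Enam, which encode enamel matrix proteins. Markers of other cells were also present. Of the fibroblast and mesenchyme markers, 17 of 18 had counts in every library and 0 were at 0 throughout. Their summed levels were 176 to 293 CPM in Het and 221 to 353 in WT. Osteoblast and bone markers summed to 1325 to 1976 in Het and 1384 to 2446 in WT. Odontoblast and dental pulp markers, which share Ibsp and Sp7 with that list, summed to 455 to 937 and 468 to 1280. The shared Ibsp made up most of it, at a mean of 9.04 log2 CPM in Het and 9.05 in WT. Sp7 was next at 5.90 and 6.15. Dspp, which is not shared, ran from 5 to 1507 counts over the libraries. Endothelium and pericyte markers summed to 7385 to 10657 and 6737 to 14538, with Rgs5 at a mean of 13.1 log2 CPM in Het and 13.2 in WT. The next highest gene of that list, Egfl7, had a mean of 5.60 in both, so the sum is mostly that of Rgs5. Macrophage and immune markers summed to 98.5 to 201 and 111 to 164. Tgfbr2 itself had between 1464 and 2280 counts in Het and between 1001 and 1821 in WT, and they do not tell the alleles apart. Column names carry a number before a hyphen, called the prefix here, with the values 1, 4 and 5 (meaning not given in the sources used here). Libraries are named by genotype and number, such as WT 4-4. Prefix 1 held 1 Het and 3 WT libraries, prefix 4 held 2 and 3, and prefix 5 held 2 and 2. Y-linked genes were expressed in 1 of 4, 1 of 5 and 4 of 4 libraries of these prefixes, and in 3 of 5 Het and 3 of 8 WT libraries. A pair of libraries stood apart for these genes: WT 4-4, in which 28 of the 39 reached their highest level, and Het 5-6, in which 16 were at their lowest.

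RefSeq promoter windows on GRCm38.p6, 250 bases before to 50 after a start site, were at hand for 24 of the 39 genes, in 26 windows. Each was searched on both strands for the core promoter element TATAAA, the element CCAAT, which binds nuclear factor Y, the GC box GGGCGG, which binds Sp1, and a pair of motifs that SMAD proteins, the nuclear effectors of TGF-beta, are known to bind, CAGACA and the palindrome GTCTAGAC. None of these motifs contains another. GGGCGG was present in 22 of 26 windows (84.6%), against 46.2% of 21262 windows of protein-coding genes. CAGACA was present in 19.2% against 18.9%, CCAAT in 34.6% against 38.2%, TATAAA in 15.4% against 12.6%, and GTCTAGAC in 0 of 26 against 0.226%. The bases before the start are given for a gene with TATAAA and no GC box in its window, Col3a1 (chr1:45311288-45311537, plus strand), and for the steadiest and most abundant gene of the set, Serpinh1 (chr7:99353240-99353489, minus strand). Both run 5′ to 3′ on the gene's strand with motif matches in capitals.
Col3a1: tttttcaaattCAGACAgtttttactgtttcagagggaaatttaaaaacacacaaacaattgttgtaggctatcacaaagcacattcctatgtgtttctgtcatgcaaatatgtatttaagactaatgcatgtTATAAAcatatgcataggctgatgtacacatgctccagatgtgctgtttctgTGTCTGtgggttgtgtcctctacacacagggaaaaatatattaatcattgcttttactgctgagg
Serpinh1: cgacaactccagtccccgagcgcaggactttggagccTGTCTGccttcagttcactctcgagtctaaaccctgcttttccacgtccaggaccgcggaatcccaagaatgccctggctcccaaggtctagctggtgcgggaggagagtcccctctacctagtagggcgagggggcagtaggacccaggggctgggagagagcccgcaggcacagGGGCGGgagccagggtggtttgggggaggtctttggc
In Col3a1 the capitals are CAGACA at -239 to -234, TATAAA at -117 to -112 and CAGACA on the opposite strand at -65 to -60, counted back from the start. In Serpinh1 they are CAGACA on the opposite strand at -213 to -208 and GGGCGG at -37 to -32. A match is a description of the letters, and no binding was measured.

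All 39 genes were expressed above the filter on low counts, the lowest single count being 19, and together they took 0.802% to 1.68% of a library's counts in Het (median 1.34%) and 0.938% to 1.91% in WT (median 1.20%). Levels of different genes were compared as CPM per kilobase of exon, that is, depth-scaled counts (CPM) divided by the summed length of a gene's annotated exons. On that scale Serpinh1 stood highest in WT at 785 ± 50.03 (SD, n = 8), followed by Col1a1 at 493 ± 227, Sparc at 333 ± 70.1, Col3a1 at 257 ± 76.8 and Col1a2 at 137 ± 43.3. Library by library, Col1a1 and Sparc each stood above Col3a1 in 8 of 8 WT libraries, Col1a1 above Sparc in 7 and Serpinh1 above Col1a1 in 7. The order depends on the length used. Per kilobase of the longest transcript, Col1a1 read 546, Sparc 548, Col3a1 454 and Col1a2 317, and Col1a1 stood above Sparc in 1 of 8 libraries and above Col3a1 in 5. The shift is greatest for Col1a2, whose exons sum to 12426 bases while its longest transcript has 5348. At the other end, Loxl4 read 0.368 ± 0.155, Col5a3 0.812 ± 0.403, Col6a3 1.13 ± 0.352 and Eln, which encodes elastin, 1.43 ± 0.819 (3.01 per kilobase of the longest transcript). Of the 39, 18 reached 10 CPM per kilobase in WT, and the median member lay at percentile 72.5 of all genes tested. Less RNA per cell and fewer cells of a type cannot be told apart in these bulk samples.

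**Figure D1:**
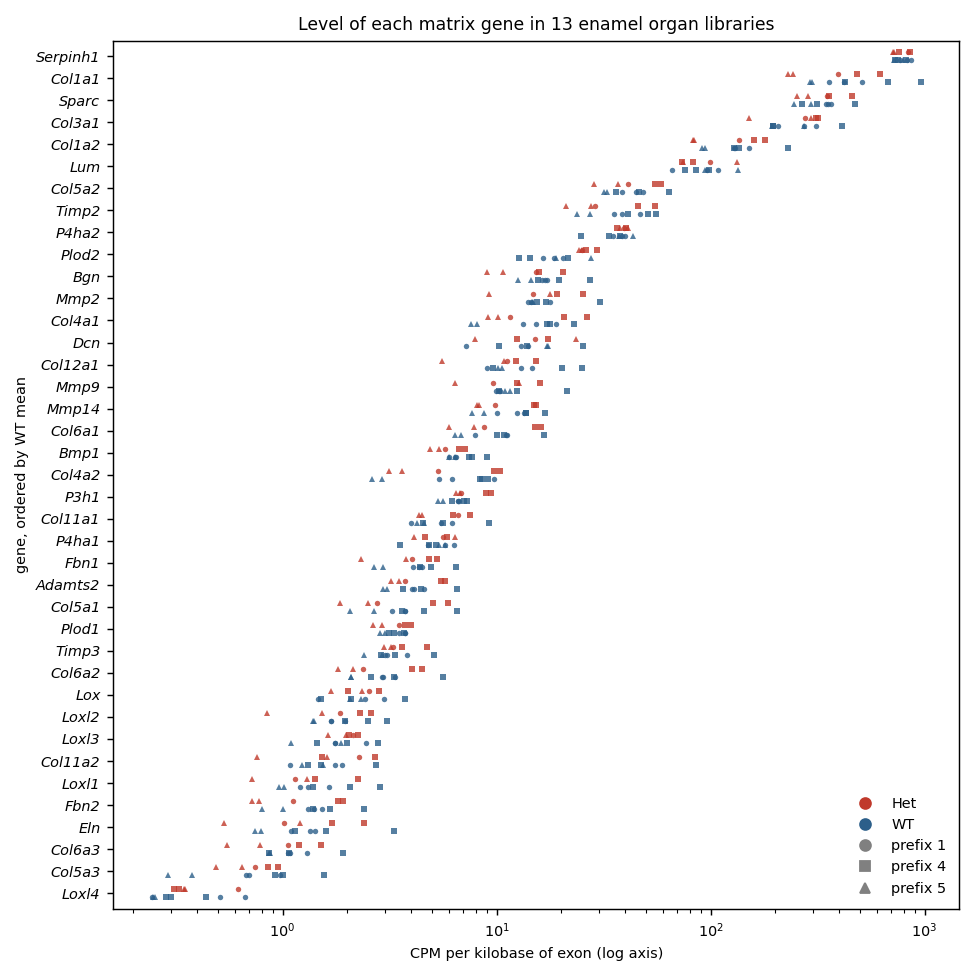
Level of each of the 39 genes in CPM per kilobase of exon (horizontal log axis), 1 point per library, coloured by genotype and shaped by prefix; genes run from the highest to the lowest WT mean. Serpinh1 points lie in a narrow band near its WT mean of 785, whereas Col1a1 runs up to 962 in a single WT library.

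The comparison of Het with WT asks whether the receptor allele goes with a different level of matrix transcripts in the enamel organ. Of the 39 genes, 0 passed the threshold (edgeR quasi-likelihood test, Benjamini-Hochberg adjusted p under 0.05 over 16328 genes), beside 0.0857% of all genes tested, 0.0429% higher and 0.0429% lower in Het. At an unadjusted p under 0.05 there were 2, Plod2 and P3h1, both higher in Het. That is 5.13% of the 39 beside 6.90% of all genes, of which 2.72% were higher and 4.18% lower, so the share was near the background. DESeq2 also put 0 of the 39 past its adjusted threshold, beside 0.410% of the 18033 genes with an adjusted p. It put the same 2 at an unadjusted p under 0.05, beside 4.61% of 31446 genes. Those 31446 include genes that the edgeR filter on low counts left out, so the 4.61% and 6.90% are not alike. For 0 of the 39 did the Het and WT ranges lie apart, beside 0.490% of all genes. Log2 fold changes, Het minus WT, were positive for 16 and negative for 23, with a median of -0.03 beside -0.00442 over all genes, and a median size of 0.09 beside 0.14.

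All 39 estimated folds lay within 1.5-fold of equality. The 95% interval, taken 1 gene at a time without adjustment, lay within 1.5-fold for 21 genes and within 2-fold for all 39. In simulated counts, 20 of 67 genes changed 1.5-fold and 46 of 67 changed 2-fold passed the adjusted threshold. Failing that threshold does not by itself exclude changes of such size. The count at an unadjusted p under 0.05 was 1, Plod2, without WT 4-3 (beside 5.77% of all genes), without WT 5-1 (9.06%), without WT 5-3 (6.87%) and with limma-voom (8.72%). It was 4 with the prefix as a term (9.82%) and 4 with the mean of the mesenchyme markers as a term (7.69%), in both cases Plod2, P3h1, Bmp1 and Bgn. It was 3 without prefix 4 (5.52%), namely Bmp1, Fbn2 and Bgn, and 5 without WT 4-4 and Het 5-6 (6.40%), namely Col3a1, Col11a1, Plod2, P3h1 and Mmp2. That pair was picked because 28 of the 39 were highest in WT 4-4 and 16 were lowest in Het 5-6. Leaving it out raises Het minus WT for most of the 39 by construction. In none of the settings tried did a gene of the 39 pass the adjusted threshold, and the lowest adjusted p was 0.112, for Plod2 without WT 5-3.

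**Figure D2:**
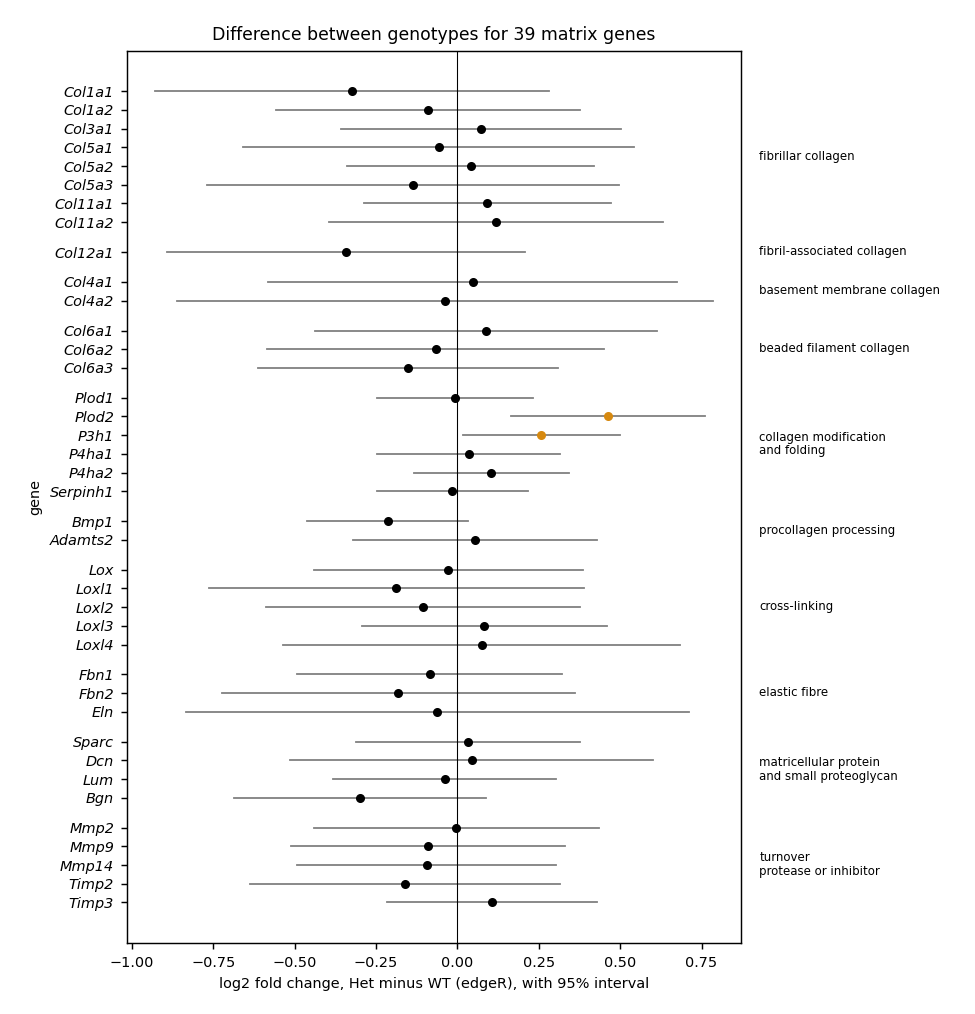
Log2 fold change, Het minus WT, with its 95% interval from edgeR for each gene (rows, grouped by role); 5 Het and 8 WT libraries entered the fit. The orange points are Plod2 and P3h1, the 2 with an unadjusted p under 0.05; every other interval crosses 0.

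Type I collagen, the main fibre of bone, dentin and connective tissue, is built of 2 Col1a1 chains and 1 Col1a2 chain. In the Het libraries 1-2, 4-2, 4-5, 5-5 and 5-6, taken in that order here and below, Col1a1 (chromosome 11, 94936224 to 94953042) read 393, 620, 484, 231 and 243 CPM per kilobase; in WT the lowest was 292, the median 424 and the highest 962. Both prefix 5 Het libraries lay below every WT library and the other 3 lay inside the WT range. The log2 fold change was -0.32 ± 0.29 (SE, adjusted p = 0.849), and it was -0.11 without WT 4-3, the library with 962. Col1a2 (chromosome 6, 4504814 to 4541544) read 135, 181, 159, 82.6 and 83.8 in Het and 90.9, 130 and 231 as lowest, median and highest in WT, a log2 fold change of -0.09 ± 0.22 (adjusted p = 0.955). As with its partner chain, the low Het values were those of prefix 5.

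Type III collagen, a homotrimer of Col3a1 typical of soft tissue and vessel walls, had levels of 276, 319, 311, 294 and 152 CPM per kilobase in Het, with 193, 240 and 411 as the WT lowest, median and highest. Of the Het libraries, 4 lay between 276 and 319 and Het 5-6 lay below all of WT. Its log2 fold change was 0.07 ± 0.21 (adjusted p = 0.965). Col3a1 lies on chromosome 1 from 45311538 to 45349706. The minor fibrillar chains of types V and XI, which set fibril diameter, had log2 fold changes from -0.14 for Col5a3 to 0.12 for Col11a2, so that 4 of the 8 fibrillar genes were positive and 4 negative.

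Col12a1, a collagen that coats fibrils and links them to other matrix, read 11.2, 15.3, 12.4, 10.8 and 5.58 CPM per kilobase in Het, and 9.02, 11.8 and 25.0 as lowest, median and highest in WT. Het 5-6 was below the WT range and WT 4-4 was the highest library of all. The log2 fold change of -0.34 ± 0.26 (adjusted p = 0.830) was the lowest estimate of the 39, and it was -0.00425 without WT 4-4 and Het 5-6. Leaving out the highest WT and the lowest Het library raises this difference by construction.

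The type IV chains form the network of basement membranes, and Col4a1 and Col4a2 are head-to-head neighbours on chromosome 8. Col4a1 read 11.6, 20.6, 26.6, 9.15 and 10.2 CPM per kilobase in Het against 7.62, 16.3 and 22.9 as lowest, median and highest in WT. Both genotypes spread alike here, with low values in prefix 5 and high values in prefix 4. Its log2 fold change was 0.05 ± 0.30 (adjusted p = 0.984) and that of Col4a2 was -0.04 ± 0.38 (adjusted p = 0.991).

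Type VI collagen forms beaded filaments around cells. Its best expressed chain per length, Col6a1, had 8.70, 16.1, 15.1, 7.84 and 6.00 CPM per kilobase in Het and 6.42, 10.5 and 16.7 as lowest, median and highest in WT, a log2 fold change of 0.09 ± 0.25 (adjusted p = 0.964). Col6a3 read 1.06, 1.51, 1.19, 0.782 and 0.548 in Het and 0.862, 1.07 and 1.92 in WT, a log2 fold change of -0.15 ± 0.22 (adjusted p = 0.909). Het 5-6 was the lowest library for both.

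The genes that modify and fold collagen inside the cell gave the 2 smallest p-values of the set. Plod2 (chromosome 9, 92542223 to 92608428) encodes the lysyl hydroxylase that acts on the telopeptides, the ends where cross-links form. It read 25.0, 29.5, 26.2, 24.2 and 25.0 CPM per kilobase in Het and 12.7, 18.7 and 27.5 as lowest, median and highest in WT. All 5 Het libraries lay above the WT median in a narrow band, and the ranges overlapped through 1 library, WT 5-3. The log2 fold change was 0.46 ± 0.14 (fold 1.38, 95% interval 1.12 to 1.70), which did not pass after adjustment (adjusted p = 0.390). Within prefixes 1, 4 and 5 it was 0.43, 0.81 and 0.11. An antisense transcript, Gm38391, covers 6.42% of Plod2 exon bases and had 93.5 counts on average against 2753 for Plod2; the kit does not mark strand.

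P3h1, named after its values were seen, encodes prolyl 3-hydroxylase, which modifies fibrillar collagen as part of a chaperone complex. It read 6.80, 9.41, 8.92, 6.78 and 6.45 CPM per kilobase in Het and 5.31, 6.62 and 7.26 as lowest, median and highest in WT. Only the prefix 4 Het libraries exceeded the WT range. The log2 fold change was 0.26 ± 0.12 (fold 1.20, 95% interval 1.01 to 1.41, adjusted p = 0.699), and within prefixes 1, 4 and 5 it was 0.04, 0.42 and 0.28.

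Serpinh1, the collagen chaperone HSP47, varied least of all. It read 840, 761, 852, 711 and 719 CPM per kilobase in Het and 720, 784 and 863 as lowest, median and highest in WT, so that its lowest and highest libraries differed 1.21-fold. The log2 fold change was -0.02 ± 0.11 (fold interval 0.842 to 1.16, adjusted p = 0.984). The prolyl 4-hydroxylase subunits, whose product stabilises the helix, had log2 fold changes of 0.03 ± 0.13 for P4ha1 and 0.10 ± 0.11 for P4ha2. Plod1, which hydroxylates lysines within the helix, had -0.01 ± 0.11.

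Bmp1, the protease that removes the C-terminal propeptide and so lets fibrils form, read 5.73, 6.68, 7.11, 5.36 and 4.88 CPM per kilobase in Het and 5.99, 6.44 and 8.99 as lowest, median and highest in WT. Of the Het libraries, 3 lay below the WT range. The log2 fold change was -0.21 ± 0.12 (adjusted p = 0.761), with -0.13, -0.21 and -0.27 within prefixes 1, 4 and 5. Adamts2, which removes the N-terminal propeptide, had a log2 fold change of 0.05 ± 0.18.

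Lox, the lysyl oxidase that starts covalent cross-links in collagen and elastin, read 2.54, 2.83, 2.03, 2.36 and 1.67 CPM per kilobase in Het and 1.46, 2.21 and 3.73 as lowest, median and highest in WT. Every Het value lay inside the WT range, and the log2 fold change was -0.03 ± 0.20 (adjusted p = 0.985). Loxl1, the family member tied to elastic fibre upkeep, read 1.14, 2.26, 1.41, 1.29 and 0.720 in Het and 0.960, 1.35 and 2.86 in WT, a log2 fold change of -0.19 ± 0.28 (adjusted p = 0.909), which was -0.00213 without WT 4-4 and -0.45 without Het 4-2. Loxl2, Loxl3 and Loxl4 had log2 fold changes of -0.11, 0.08 and 0.07. The value of Loxl3 is uncertain, since 11.6% of its exon bases overlap Htra2 on the opposite strand, which had 237 counts on average against 211 for Loxl3.

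Fbn1, the fibrillin of adult microfibrils, read 4.01, 5.29, 4.83, 3.76 and 2.32 CPM per kilobase in Het and 2.68, 4.38 and 6.44 as lowest, median and highest in WT (chromosome 2, 125300594 to 125507993). Its log2 fold change was -0.09 ± 0.19 (adjusted p = 0.951). Gm9913, on the opposite strand, covers 20.1% of its exon bases but had 0.154 counts on average. Fbn2, the fibrillin prominent in developing tissue, read 1.11, 1.91, 1.81, 0.776 and 0.719 in Het and 0.801, 1.39 and 2.39 in WT, a log2 fold change of -0.18 ± 0.26 (adjusted p = 0.909). Eln (chromosome 5, 134702593 to 134747323) read 1.02, 2.39, 1.71, 1.21 and 0.532 in Het and 0.740, 1.24 and 3.32 in WT, a log2 fold change of -0.06 ± 0.36 (adjusted p = 0.983). The lowest and highest library for Eln, Het 5-6 and WT 4-4, differed 6.25-fold, the widest span of the 39. Without these 2 libraries the log2 fold change of Eln was 0.45, that of Fbn1 0.17 and that of Fbn2 0.11. For each of these genes WT 4-4 was the highest library and Het 5-6 the lowest. Leaving both out therefore raises Het minus WT by construction.

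Sparc, a collagen-binding protein abundant in mineralised tissue, read 349, 459, 357, 285 and 252 CPM per kilobase in Het and 246, 330 and 472 as lowest, median and highest in WT, a log2 fold change of 0.03 ± 0.16 (adjusted p = 0.981). Bgn, the small proteoglycan biglycan, read 15.2, 20.3, 15.8, 10.8 and 8.98 in Het and 12.7, 16.6 and 27.3 in WT. Both prefix 5 Het libraries were below the WT range, and the log2 fold change was -0.30 ± 0.19 (adjusted p = 0.782), with -0.14, -0.18 and -0.46 within prefixes 1, 4 and 5. Decorin (Dcn) and lumican (Lum), related proteoglycans that space fibrils, had log2 fold changes of 0.04 ± 0.26 and -0.04 ± 0.16.

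Among turnover genes, Timp2, an inhibitor of metalloproteases that also takes part in activating gelatinase A, read 28.9, 55.3, 45.8, 27.5 and 21.1 CPM per kilobase in Het and 23.8, 39.8 and 55.9 as lowest, median and highest in WT. Its log2 fold change was -0.16 ± 0.23 (adjusted p = 0.909), and only Het 5-6 lay outside the WT range. The gelatinases Mmp2 and Mmp9 had log2 fold changes of -0.00312 and -0.09, the membrane protease Mmp14 had -0.09 and the inhibitor Timp3 had 0.11. Timp3 is uncertain, as 21.3% of its exon bases overlap Syn3, which had 341 counts on average against 660.

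**Figure D3:**
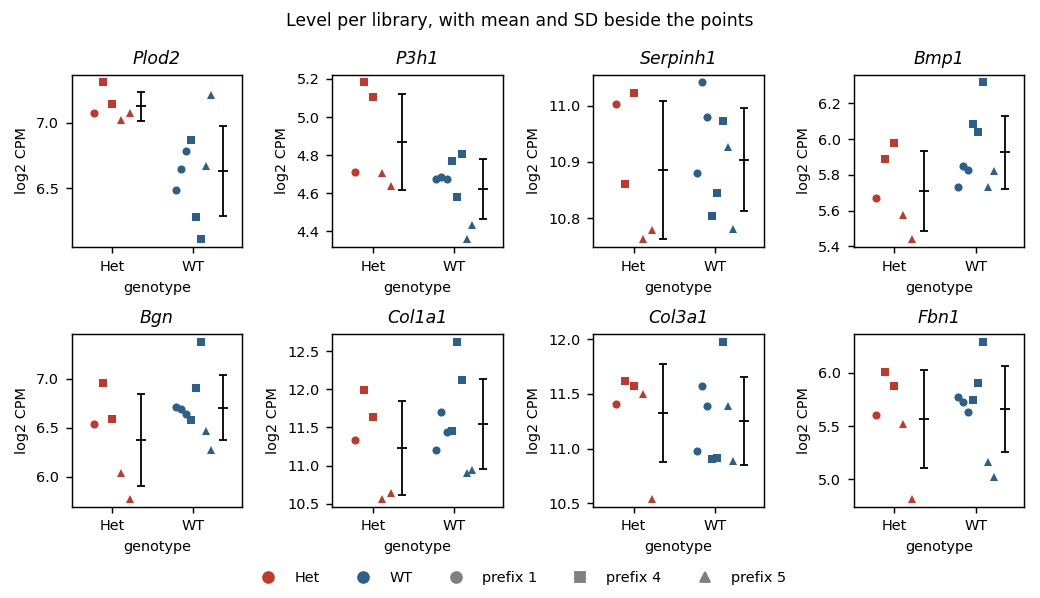
Log2 CPM of 8 genes in each library, with Het in red and WT in blue, symbols for the prefix and the mean with SD beside the points. Plod2 shows all 5 Het libraries above the WT median; in Bgn and Col1a1 the low Het points are the prefix 5 triangles.

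For most of the 39 the spread within genotypes was larger than the log2 fold change. The SD within genotypes had a median of 0.424 log2 CPM beside 0.298 over all genes, and the log2 fold change a median size of 0.09. For Plod2 (0.463 beside an SD of 0.286), P3h1 (0.257 beside 0.198) and Bmp1 (-0.215 beside 0.212) the difference was larger in size than the SD. The lowest and highest library of a gene, of either genotype, differed by a median of 2.78-fold over the 39. Prefix accounted for a median of 61.7% of the variance of a gene of the 39, beside 22.9% over all genes, and genotype for 1.29% beside 5.33%. Prefix took over 50% for 21 of the 39 (53.8%), beside 16.5% of all genes. Of the 39 genes, 31 had their highest mean in prefix 4 and 33 their lowest in prefix 5, where 36.7% and 38.2% of all genes did. The median difference of prefix 4 minus prefix 5 was 0.66 log2 CPM over the 39 and 0.00318 over all genes. These counts describe the set with no test, since prefix groups were seen before they were compared, and the members share libraries.

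The share taken by prefix differed widely among the 39. It was 89.3% for Col4a2, 87.6% for Mmp14, 84.1% for Col4a1, 83.4% for Fbn2 and 74.9% for Col1a1. It was 10.8% for Plod2, 17.8% for P4ha1, 12.6% for Col3a1, 10.3% for Dcn and 3.16% for Lox. The prefix means of the mesenchyme markers were 2.39, 2.57 and 2.27 log2 CPM in prefixes 1, 4 and 5, and all 4 prefix 5 libraries expressed Y-linked genes; the part of either in these differences was not tested. The sign of Het minus WT was the same in all 3 prefixes for 9 of 39 genes (23.1%), beside 36.3% of all genes. These were Plod2, P3h1 and Loxl3 on the positive side with Timp3, and Col1a1, Col12a1, Bmp1, Loxl1 and Bgn on the negative side.

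WT 4-4 and Het 5-6, singled out after their values were seen, moved most of the set in opposite directions. Each gene was set against its median log2 CPM over the other libraries of the same genotype. In WT 4-4 the 39 genes stood at a median of 1.66 times that reference, 35 above and 4 below. All 8 fibrillar chains were above, with a median of 1.80-fold, and Eln by 1.53 and Col12a1 by 1.23 on the log2 scale. The modification and folding genes did not share this: their median was 0.958-fold, 2 were above and 4 below, with P4ha2 at -0.61 and Plod2 at -0.57. In Het 5-6 the 39 stood at a median of 0.620 times the median of the other Het libraries, 37 below and 2 above. Eln was at -1.41 and Loxl2 at -1.27, while P4ha2 at 0.09 and Plod2 at -0.03 stood near that median. Over all genes tested the same medians were 0.997-fold and 0.998-fold.

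The same libraries were the extremes of several marker lists. WT 4-4 had the highest mean of the mesenchyme (3.16 log2 CPM), endothelium and pericyte (4.66) and osteoclast (3.60) markers and the lowest of the secretory ameloblast markers (9.07). Het 5-6 had the lowest of the mesenchyme (1.83), endothelium and pericyte (3.89), macrophage (2.58) and osteoclast (2.03) markers and the highest of the secretory ameloblast markers (9.56). This did not hold for every list. The osteoblast and bone markers were highest in WT 1-4 (5.93) and lowest in Het 4-5 (5.02). WT 4-4 and Het 5-6 read 5.61 and 5.09 there. The odontoblast and dental pulp markers were highest in Het 4-2 (4.86) and lowest in WT 1-1 (3.48), where WT 4-4 and Het 5-6 read 4.73 and 3.73. The macrophage markers were highest in Het 5-5 (3.63), with WT 4-4 at 3.06. Means of mesenchyme markers in the 11 libraries other than WT 4-4 and Het 5-6 lay between 2.13 and 2.73. Over genotypes the mesenchyme markers had a median log2 fold change of 0.01 (9 positive, 8 negative of 17 tested), the endothelium and pericyte markers 0.04 (9 and 6 of 15), the osteoblast and bone markers -0.09 (0 and 11 of 11) and the osteoclast markers -0.19 (1 and 9 of 10), and 0 of these genes passed the threshold. The part of these cells in the levels of the matrix genes was not tested.

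**Figure D4:**
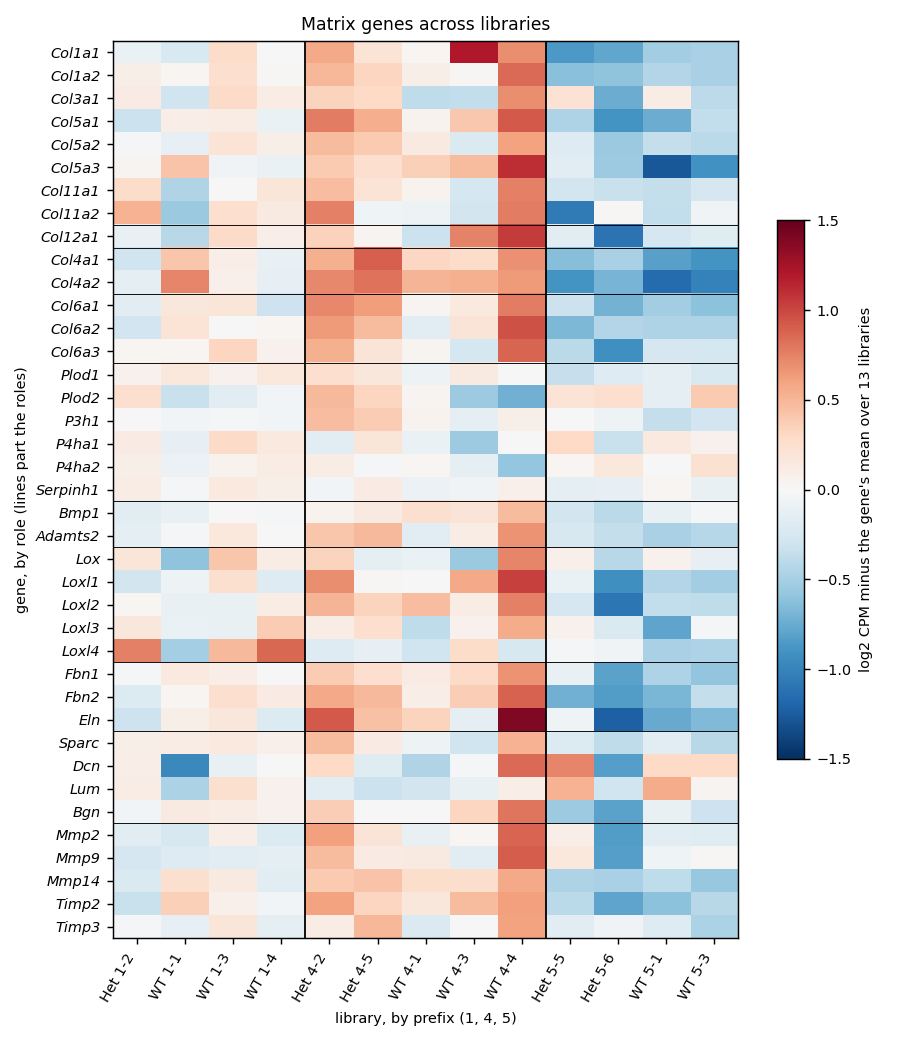
Log2 CPM of each of the 39 genes (rows, by role) in each of the 13 libraries (columns, by prefix), as the difference from the gene's mean over all libraries; red is above and blue below. The columns of prefix 5 are mostly blue, WT 4-4 is red in most rows outside those from Plod1 to Serpinh1, and Het 5-6 is the bluest column.

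Ratios of 2 genes within a library do not depend on library scaling, and 6 were compared between genotypes by exact two-sided permutation tests over 1287 splits, with p adjusted over the 6. Het and WT ranges overlapped for each. The log2 ratio of Col1a1 to Col1a2 counts was 0.61, 0.86, 0.68, 0.56 and 0.62 in Het and 0.67 ± 0.12 on average (SD, n = 5), against 0.87 ± 0.46 in WT (SD, n = 8; exact permutation p = 0.445, adjusted p = 0.534). The WT spread came from WT 4-3, at 1.98 where the other 7 lay between 0.54 and 0.82; without it the difference of -0.21 was -0.05. In that library Col1a1 was high at 962 CPM per kilobase while Col1a2 was not. Per kilobase of the longest transcript the geometric mean ratio was 1.65-fold in WT and 1.43-fold in Het.

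For type III against type I collagen, the log2 ratio of Col3a1 to Col1a1 differed by 0.39 between Het and WT (exact permutation adjusted p = 0.534), by 0.18 without Het 5-5 and by 0.19 without WT 4-3. The 2 type IV chains kept a log2 ratio of 1.26 to 1.71 in Het and 1.13 to 1.81 in WT, a difference of 0.07 (exact permutation adjusted p = 0.579), although the lowest and highest libraries differed 3.49-fold for Col4a1 and 3.95-fold for Col4a2. Col6a1 to Col6a2 differed by 0.14, Fbn1 to Fbn2 by 0.14 and Mmp14 to Timp2, a protease and the inhibitor it binds, by 0.09, each with an exact permutation adjusted p of 0.534. When labels were exchanged only among libraries of the same prefix, the adjusted p was 0.963 for the type IV chains and 0.41 for the other 5 ratios (exact permutation tests). Within prefixes 1, 4 and 5 the difference had 1 sign for 4 of the 6 ratios: it was -0.10, -0.34 and -0.16 for Col1a1 to Col1a2, 0.20, 0.58 and 0.20 for Col3a1 to Col1a1, 0.18, 0.12 and 0.14 for Col6a1 to Col6a2, and 0.19, 0.00514 and 0.08 for Mmp14 to Timp2. The Col1a1 to Col1a2 and Col3a1 to Col1a1 ratios share Col1a1, so they are not independent. Their prefix 4 differences include WT 4-3, which read 1.98 and -1.71. None of the 6 ratios passed the threshold with either set of splits, and the number of libraries limits these tests.

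**Figure D5:**
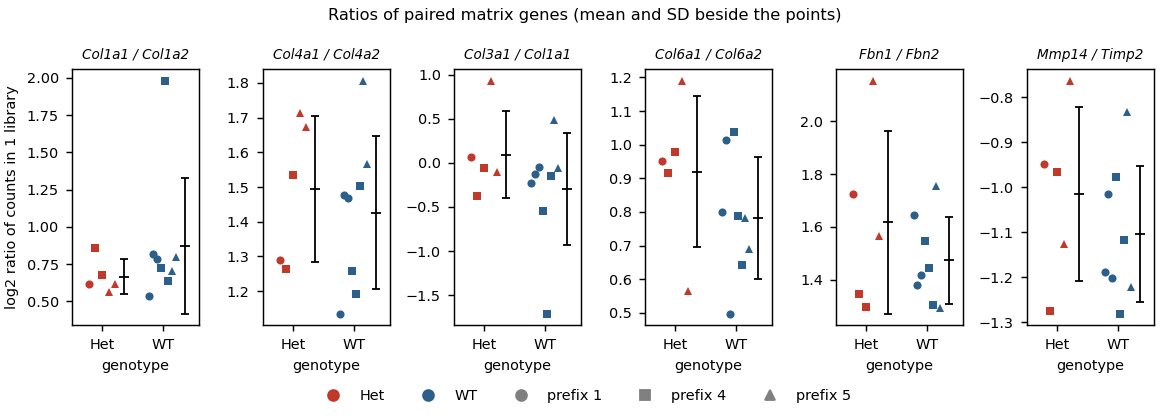
Log2 ratio of counts of 2 genes in each library for 6 pairs, with Het in red and WT in blue, symbols for the prefix and mean with SD beside the points. The WT 4-3 point stands alone at 1.98 for Col1a1 to Col1a2 and at -1.71 for Col3a1 to Col1a1; the other panels show overlapping groups.

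Genes of the same pathways outside the 39 were read from lists of related matrix genes, and 0 of them passed the threshold (edgeR). Of the other collagens, 27 of 30 were tested, 13 positive and 14 negative. Col24a1, a fibrillar collagen, had the smallest p, with a log2 fold change of 0.59 ± 0.16 (adjusted p = 0.289), followed by Col4a3, a basement membrane chain, at 0.66 ± 0.28 (adjusted p = 0.666). Of further modification and processing genes, 15 of 20 tested were positive and 5 negative, led by Colgalt1, which adds galactose to hydroxylysine, at 0.26 ± 0.11 (adjusted p = 0.635) and P3h2, a prolyl 3-hydroxylase, at -0.61 ± 0.30 (adjusted p = 0.741).

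Other elastic fibre and microfibril genes were negative in 12 of 18, with a median log2 fold change of -0.15. The smallest p were those of Ltbp2, a microfibril protein related to the binders of latent TGF-beta, at -0.56 ± 0.27 (adjusted p = 0.731), and Fbln1, a fibulin, at -0.31 ± 0.19 (adjusted p = 0.786). Matrix proteins and proteoglycans were negative in 14 of 21 (median -0.10), with Smoc2 at -0.21 ± 0.10 (adjusted p = 0.700) and Thbs3 at -0.37 ± 0.18 (adjusted p = 0.741). Metalloproteases and inhibitors were negative in 9 of 13 (median -0.08), with Mmp19 at -0.32 ± 0.22 (adjusted p = 0.806) and Mmp15 at -0.35 ± 0.28 (adjusted p = 0.831).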

How the data were processed

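Total RNA of each enamel organ was made into unstranded Nextera XT libraries and sequenced on a NextSeq 500 with single 75-base reads, per the labels' protocols. The submitters' processing notes name STAR 2.5.2a, GRCm38, DESeq2, edgeR and limma (counting tool and annotation: not given in the sources used here). Raw counts of 48733 features, deposited by the authors for 13 libraries, entered every test; a deposited normalized signal, CPM with TMM scaling per the table's name, served as an alternative for ratios. The 24 features that are no Ensembl gene took at most 0.000177% of counts and were left out. Columns name the genotype but no replicate number of the labels. Each library was taken as 1 mouse. No pair of libraries matched within sampling noise (chi-square per gene at least 11.3 over 78 pairs). That check finds a library counted again, and cannot tell 2 samples of 1 mouse from samples of 2 mice.

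Genes passing filterByExpr (count minimum 10, 16328 genes) were fitted under R 4.3.3 by edgeR 4.0.16 (TMM scaling, robust quasi-likelihood test, genotype only, Benjamini-Hochberg adjustment, threshold 0.05). Log2 CPM used a prior count of 2. Exon lengths and coordinates came from GENCODE M21 on GRCm38, and promoters from RefSeq. Alternatives were other factors and filters, DESeq2 1.42.0, limma-voom 3.58.1, terms for prefix, Y-linked genes or mesenchyme markers, and libraries left out. The script was tested on simulated data. The members and lists were chosen with earlier results of these data known, and the pair WT 4-4 and Het 5-6 was left out as a choice made after seeing the data. Genes given in full are any past the threshold, Col1a1, Col1a2, Col3a1, Fbn1, Eln and Lox, and in each of 10 roles the gene of smallest p and that of highest level per length; of each other list, the 2 of smallest p.

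Marker lists not given elsewhere had these log2 fold changes, with 0 genes past the threshold in each: odontoblast and dental pulp, median -0.16 (8 tested of 10, 1 symbol unmatched); macrophage and immune, -0.03 (12 of 12); skeletal muscle, -0.66 (10 of 12); secretory ameloblast, 0.14 (11 of 12).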

Additional observations from a re-analysis of the deposited data

Results flagged for a closer look

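Of 48 groups of libraries examined for 1 value far from the rest (Dixon's criterion, which chance meets in about 1 of 20 groups), 3 met it. Col3a1 in Het was lowest in Het 5-6, at 10.54 log2 CPM where the other 4 Het libraries lay between 11.41 and 11.61. The Col1a1 to Col1a2 log2 ratio in WT was highest in WT 4-3, at 1.98 where the other 7 lay between 0.54 and 0.82. The Col3a1 to Col1a1 log2 ratio in WT was lowest in the same library, at -1.71 where the others lay between -0.55 and 0.49; both ratios hold the same Col1a1 value, so they are a single departure.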

How the results depend on the processing

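No paired analysis was possible because the columns carry no replicate number of the labels. A comparison blocked by prefix was possible, since each prefix holds both genotypes, and it was run with prefix as a term. The SE and interval of each gene, and the adjusted p beside them, come from the edgeR fit with genotype only. With prefix as a term, the unadjusted edgeR p was 0.00468 for P3h1 in place of 0.0376, and 0.00480 for Plod2 in place of 0.00414. Both had an adjusted p of 0.288 in that fit. The count of 0 of the 39 genes past the adjusted threshold held in 14 other settings and with each of 13 libraries left out in turn. The number at an unadjusted p under 0.05, 2 as reported, was 1 with limma-voom (beside 8.72% of all genes), 4 with prefix as a term (9.82%), 4 with the mesenchyme marker mean as a term (7.69%), 5 without WT 4-4 and Het 5-6 (6.40%), 3 without prefix 4 (5.52%), where neither Plod2 nor P3h1 was among them, and 1 to 2 with 1 library left out. The 2 were Plod2 and Bgn without Het 4-2, and Plod2 and Bmp1 without Het 4-5, so P3h1 was not among them there. The median log2 fold change of -0.03 ran from -0.14 without prefix 4 to 0.20 without WT 4-4 and Het 5-6. RLE and upper-quartile factors, the 3 other filters and DESeq2 turned no named gene's sign. Col1a1, Col12a1, Plod2, Bmp1 and Bgn kept theirs in every setting run, and the other 13 of 18 did not. Leaving out WT 4-4 and Het 5-6 raises most log2 fold changes of the 39, and their median, by construction. The cause of the turns in other settings was not tested. Turned log2 fold changes were -0.0684 for Col4a1 with limma-voom; 0.00781 for Serpinh1 with prefix as a term; 0.0353 for Col1a2, 0.000803 for Serpinh1, 0.0448 for Fbn1 and 0.16 for Eln with the Y-linked mean as a term; and -0.00168 for Col4a1 with the mesenchyme mean as a term. Without prefix 4 they were -0.0580 for Col3a1, -0.29 for Col4a1, -0.20 for Col6a1 and -0.12 for Sparc. Without prefix 5 they were 0.0722 for Col1a2, 0.0418 for Col6a3, 0.0461 for Serpinh1, 0.0581 for Lox, 0.000759 for Fbn2 and 0.0480 for Eln. Without WT 4-4 and Het 5-6 they were 0.18 for Col1a2, 0.16 for Col6a3, 0.0197 for Serpinh1, 0.20 for Lox, 0.16 for Loxl1, 0.17 for Fbn1, 0.11 for Fbn2, 0.45 for Eln and 0.0637 for Timp2. With 1 library left out, the range was -0.25 to 0.0594 for Col1a2, -0.22 to 0.19 for Col4a1, -0.11 to 0.24 for Col6a1, -0.34 to 0.00364 for Col6a3, -0.0449 to 0.0166 for Serpinh1, -0.12 to 0.10 for Lox, -0.21 to 0.0607 for Fbn1, -0.36 to 0.24 for Eln and -0.10 to 0.12 for Sparc. Among the genes whose sign no single library turned it was -0.55 to -0.11 for Col1a1, 0.000675 to 0.22 for Col3a1, -0.49 to -0.17 for Col12a1, 0.40 to 0.56 for Plod2, -0.28 to -0.15 for Bmp1, -0.45 to -0.00213 for Loxl1, -0.38 to -0.0339 for Fbn2, -0.47 to -0.17 for Bgn and -0.38 to -0.0210 for Timp2. The 6 ratios kept their direction and stayed short of the threshold with labels exchanged within prefixes and with each of 13 libraries left out. The deposited TMM-scaled CPM could not change them, because scaling cancels within a library. With the longest transcript in place of all exons, 19 genes in place of 18 reached 10 CPM per kilobase. Depth limits the lowest genes, whose counts start at 19.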
